A study of Mus musculus with 5 samples.

Results

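Initiation zones are stretches of the genome in which DNA replication was called to start. Chromosome 11 of the mouse carried 2662 of the 35512 zones in the list, or 7.496%, taken as every zone whose listed chromosome is 11. The chromosome was selected on its measured zone number, width and coverage, in which it stood high among the autosomes. What follows therefore describes how its zones are laid out, beside the other 18 autosomes, with no test. The zones come from CGR8 cells, a feeder-free line of mouse embryonic stem cells kept pluripotent with leukaemia inhibitory factor in serum. Short nascent strands, the newly made DNA at an origin, were separated on a sucrose gradient and digested with lambda exonuclease, which spares strands capped by an RNA primer. The study has 3 nascent strand samples, each from its own culture, beside 1 control in which RNase A took away the primers first and 1 in which sonicated genomic DNA went through the same digestion. All are of the same untreated line, and the labels give no other genotype or treatment.

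The list combines the 3 nascent strand samples and holds only a start and an end for each zone. No value per culture or per control can be read from it, so the spread between cultures is unknown, as is the read depth behind a zone. Each SD below is over the 18 other autosomes, which are not replicates of a condition. Positions are in build mm9 and count from 1. Zone sequences and the genes inside zones are not given, because no genome or annotation of that build was used here.

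Replication in mammalian cells begins at many origins along each chromosome. The origin recognition complex marks candidate sites and loads the MCM helicase in G1 phase, and only part of the loaded sites fire in a given S phase. Origins tend to gather in groups, and gene-rich, early replicating chromatin is known to hold more of them than gene-poor, late replicating chromatin. Mouse chromosomes are acrocentric, so low coordinates lie beside the centromere and high ones near the far telomere. Chromosome 11 is known as a gene-rich mouse autosome, home to the Hoxb cluster, the alpha-globin genes and Trp53, none of which could be placed against the zones here.

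Between its first and last zone chromosome 11 spanned 119 Mb, and it carried 22.4 zones per Mb, against 14.3 ± 2.54 (SD, n = 18 autosomes). Chromosome 5 came next with 18.1, and the lowest was chromosome 14 with 10.2. Zones on chromosome 11 had a median width of 3400 bp, against 2539 ± 424 bp on the others, with chromosome 4 next at 3200 bp. Because zones were both more numerous and wider, they took up 11.9% of the span, against 5.51% ± 1.88, and chromosome 17 followed with 8.06%. The gap to the neighbour in rank was wide for coverage and density and narrow for width. In the RefSeq gene table, which is of build GRCm38.p6 and was used for gene numbers only, chromosome 11 held 1609 protein-coding genes. That was 13.5 per Mb of its span, place 2 of 19, against 8.40 ± 2.23 on the others. Chromosome 7, with 13.6 genes per Mb, carried 16.2 zones per Mb. Whether gene content bears on zone density was not tested. Chromosome 11 had 1.65 zones per protein-coding gene. This lay inside the range of the other autosomes (1.74 ± 0.27, from 1.19 on chromosome 7 to 2.18 on chromosome 18), at place 13 of 19.

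**Figure D1:**
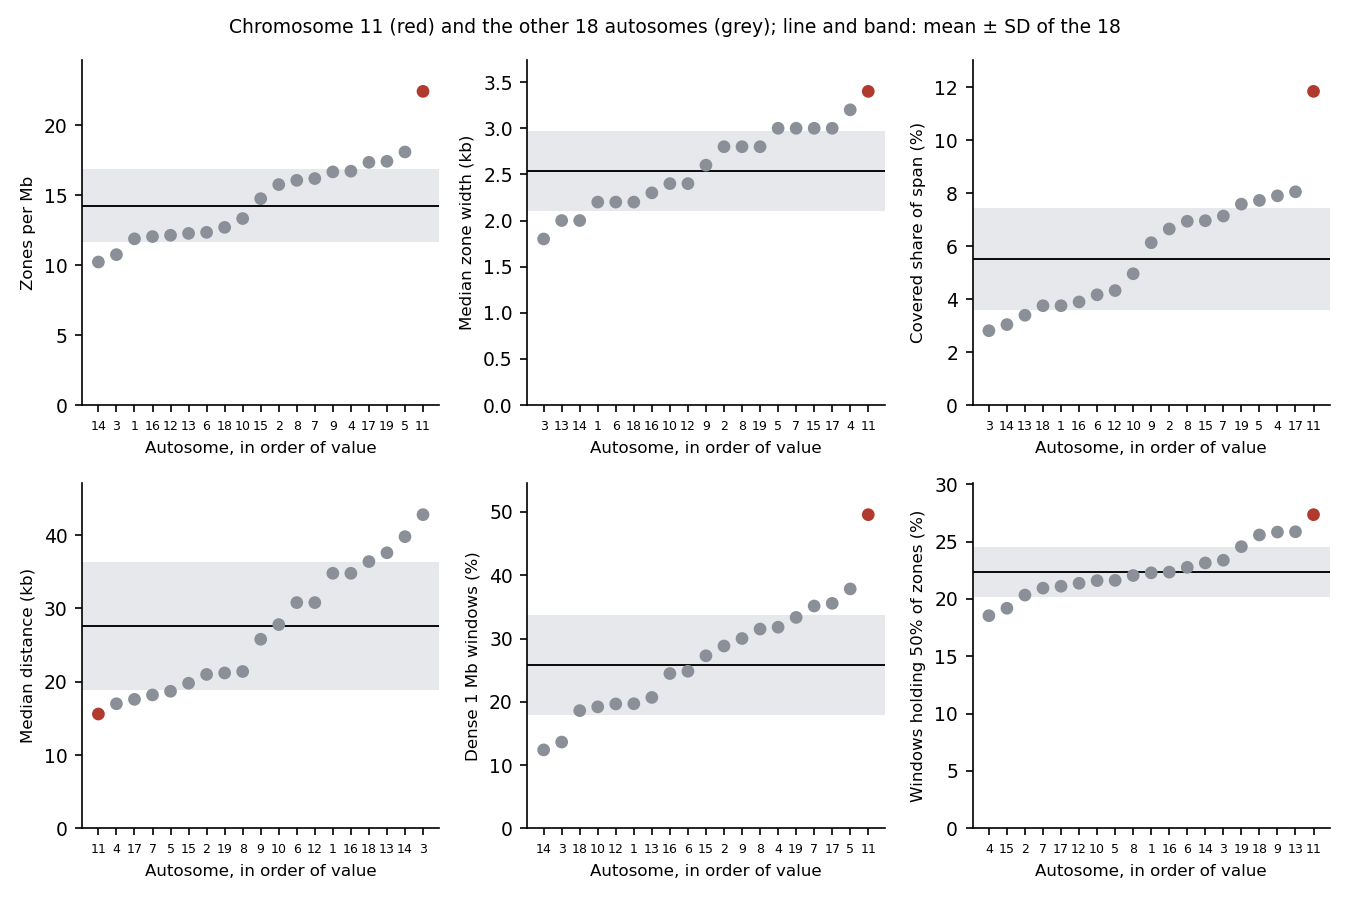
Each panel plots 1 measure for the 19 autosomes in order of value, with chromosome 11 in red, the other 18 in grey, and the mean ± SD of the 18 as a line and band. Chromosome 11 is at the top for zones per Mb (22.4), median width (3.4 kb), covered share (11.9%), share of 1 Mb windows that are dense, with 20 zones or more (49.6%, against 25.6% of the windows of the other autosomes), and share of windows needed to hold 50% of the zones (27.4%), and at the bottom for median distance (15.6 kb).

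The width distribution was shifted toward wide zones. Zones under 1 kb made up 4.66% of chromosome 11 (124 zones), against 8.22% ± 1.98 on the others and at least 5.21% on each of them. Those of 1 to under 2 kb made up 19.9%, against 29.1% ± 5.03. The class of 2 to under 5 kb was near the others, at 39.3% against 41.2% ± 1.62. Above it, 5 to under 10 kb held 23.0% against 14.8% ± 4.21, and 10 to under 20 kb held 10.3% against 5.43% ± 2.36. Zones of 20 kb or more numbered 76, or 2.86%, against 1.19% ± 0.77. These 76 were 16.0% of all autosomal zones of that width, while chromosome 11 held 7.58% of autosomal zones of any width.

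Zones of 10 kb or more counted 349 on chromosome 11, or 13.1% of its zones, and 6.95% of the zones of the other autosomes pooled reached this width. They supplied 40.9% of the covered length of chromosome 11, against 26.2% ± 8.85 elsewhere. Of the 100 widest autosomal zones, 14 lay on chromosome 11, as did 3 of the 10 widest.

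Distances between neighbouring zones, measured from edge to edge, were short. Their median was 15600 bp, with quartiles at 4600 and 41200 bp, and the medians of the other autosomes were 27572 ± 8570 bp, the shortest being 17000 bp on chromosome 4. Distances under 2 kb made up 14.8% of the 2661 on chromosome 11, against 8.93% ± 3.27. The 2 to under 5 kb class held 11.1% against 8.31% ± 1.87. Between 10 and under 50 kb the shares were alike, 40.6% against 38.7% ± 1.72. From 100 to under 500 kb the share was 8.34%, against 15.6% ± 4.20, and at 500 kb or more it was 0.60%, against 1.86% ± 0.60. Chromosome 11 thus had larger shares than the mean of the others below 50 kb, most of all below 2 kb, and smaller ones above.

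**Figure D2:**
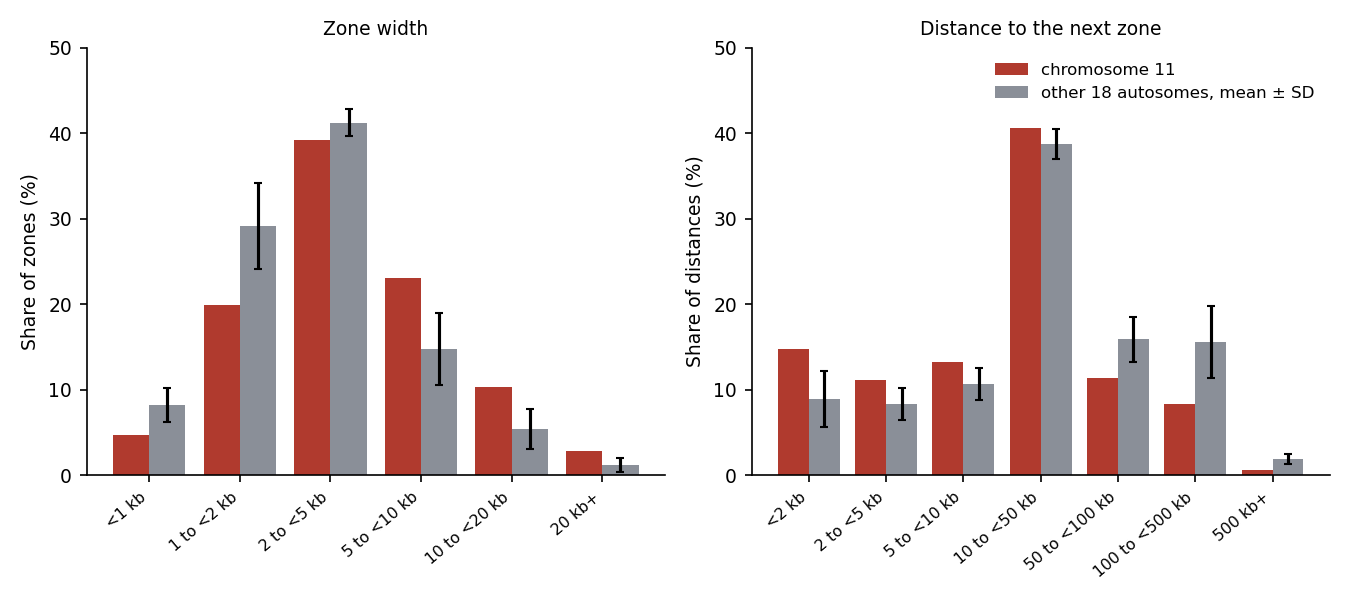
Share of zones in 6 width classes (left) and of distances to the next zone in 7 classes (right), in percent, for chromosome 11 (red) and the mean ± SD of the other 18 autosomes (grey). Chromosome 11 has the higher share in the 3 widest width classes and in the 4 shortest distance classes, for example 14.8% against 8.93% of distances under 2 kb.

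Of its zones, 59.2% had a neighbour within 10 kb, against 45.5% of the zones of the other autosomes pooled and 56.2% on chromosome 4, the next in order. Zones with none within 100 kb numbered 77, or 2.89%, a lower share than on any other autosome (7.09% ± 2.37, at least 3.93%). Distances of over 500 kb occurred 16 times and took up 10.4% of the span, against 21.5% ± 4.40, also the lowest of the 19. The longest, at 1.23 Mb, was short beside the longest of the other autosomes, 2320 ± 1297 kb, though chromosome 18 had a shorter one of 1197 kb.

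Zones were then counted by midpoint in fixed windows of 1 Mb, of which 117 lay wholly inside the span. A window of chromosome 11 held a median of 19 zones, with quartiles at 11 and 33. The 2268 windows of the other autosomes held a median of 11, with quartiles at 4 and 20. Covered share had a median of 7.20% per window, against 2.22%. No window of chromosome 11 was without a zone, while 65 of the others were (2.87%), 17 of them on chromosome 7. Chromosomes 18 and 19 had no empty window either.

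The windows at the top were less unusual than their number. The fullest window of chromosome 11 held 57 zones, which ranked 9 of 19 among the fullest windows of the autosomes, and chromosome 2 reached 69. None of its windows held 60 zones or more, and 10 of the others did (0.44%). At so small a share, their absence among 117 windows does not set chromosome 11 apart. Windows of 40 zones or more were 18 on chromosome 11 (15.4%), against 5.600% elsewhere. Relative to the mean, zone number varied less between windows than on any other autosome. The coefficient of variation over windows was 0.66 (0.83 ± 0.08 on the others). The mean itself was the highest, 22.3 zones per window against 14.3 ± 2.52. To hold 50% of the zones took 27.4% of the windows of chromosome 11, the highest share of the 19 (22.4% ± 2.11). Zones were nevertheless not spread evenly along it. Beyond the midpoint of the span, zone density was 1.83 times that before it (1.43 ± 0.66 on the others, place 6 of 19). Adjacent windows differed by a median of 7 zones, against 5 on the others. These steps were not scaled to the mean, which was higher on chromosome 11, so they are no measure of unevenness.

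**Figure D3:**
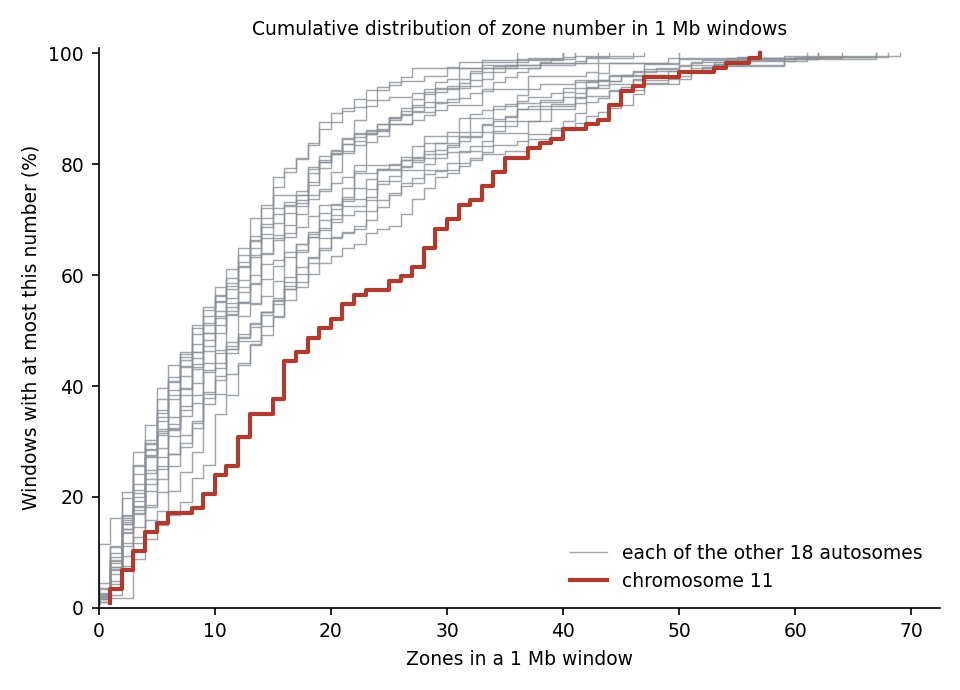
Cumulative share of 1 Mb windows (percent) with at most the number of zones on the horizontal axis, for chromosome 11 (red) and each of the other 18 autosomes (grey). The red curve lies to the right of the grey ones through the middle of the range, with a median of 19 zones, and ends at 57, short of the 69 reached by another autosome.

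Windows were called dense at 20 zones or more and sparse at 4 or fewer, the quartiles of the other 18 autosomes. On chromosome 11, 58 of 117 windows were dense, or 49.6%, against 25.6% of the windows of the others, from which the limit was set. The next autosome was chromosome 5 with 37.8%. Sparse windows were 16, or 13.7%, against 25.2% of the windows of the others, and only chromosome 9, at 12.5%, had a smaller share. Sparse and dense windows lay apart: 15 of the 16 sparse windows lay before 49 Mb, among 45 windows, and 51 of the 58 dense windows lay after it, among 72. That border was chosen after the profile was seen. Before it windows held a median of 11 zones, the median of the other autosomes, and after it 29.

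**Figure D4:**
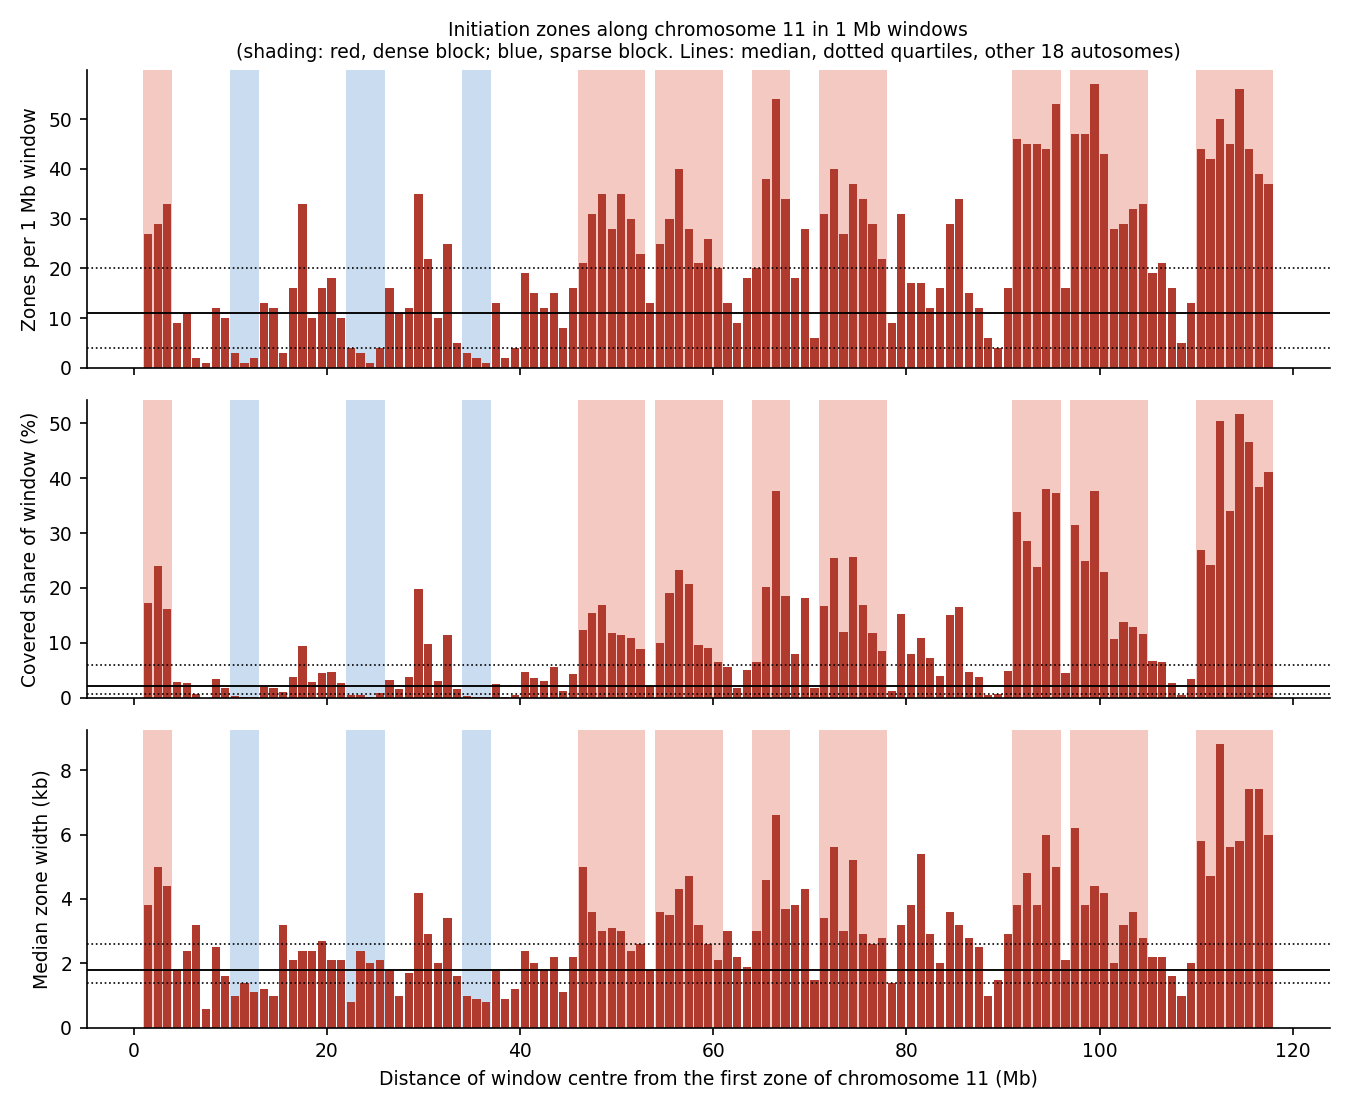
Zone number, covered share (%) and median zone width (kb) in each 1 Mb window, by the distance of the window centre from the first zone of chromosome 11 in Mb, with the median (line) and quartiles (dotted) of windows of the other 18 autosomes. Shading marks the 8 dense blocks (red) and the 3 sparse blocks (blue), and covered share (up to 51.6%) and median width (up to 8.8 kb) are highest in the last block, while zone number is highest in the seventh (57, against 56 in the last).

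Runs of 3 or more adjacent dense windows were taken as dense blocks. Chromosome 11 had 8, a number that chromosome 7 also reached (3.33 ± 1.88 on the others). They made up 41.9% of its windows, against 14.9% ± 7.92 and at most 29.1% on chromosome 5. None was long for an autosome: the longest runs covered 8 Mb, the mean of the longest runs elsewhere being also 8 Mb (SD 4.98 Mb) and the maximum 20 Mb, on chromosome 4. In all, the 8 blocks took up 41.3% of the span and held 1754 zones (65.9%), 303 of the 349 zones of 10 kb or more, and 77.1% of the covered length. Their zones had a median width of 4200 bp and a median distance to the nearest zone of 4.40 kb, and 69.95% had a neighbour within 10 kb.

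The first dense block ran from 4000001 to 7000000 with 89 zones and a covered share of 19.2%. Together with the incomplete window before it, which held 39 zones in 977 kb, it formed a dense stretch at the centromeric end. Zone number then dropped from 33 in the window at 6 to 7 Mb to 9 in the next, and no further dense block was met until 49 Mb.

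The next 4 blocks lay in the middle of the chromosome. The second and the third, from 49000001 to 56000000 and from 57000001 to 64000000, held 203 and 190 zones and were split by a window with 13. Their zones were the narrowest of any dense block, both with a median of 3200 bp, and covered 12.6% and 14.1% of the length. The fourth, from 67000001 to 71000000, held 146 zones with a median width of 4400 bp. One window of it, from 69000001 to 70000000, held 54 zones, the only one of the 5 fullest windows of the chromosome to lie before 94 Mb. The fifth, from 74000001 to 81000000, held 220 zones over 16.8% of its length, and was set off by windows with 6 zones before it and 9 after it.

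The remaining 3 blocks lay beyond 94 Mb. The sixth, from 94000001 to 99000000, held 233 zones, and its 5 windows were even, with 44 to 53 zones each. It was covered to 32.3%, and 83.3% of its zones had a neighbour within 10 kb. The seventh, from 100000001 to 108000000, held 316 zones at a covered share of 20.7%. It consisted of a fuller first part, with 43 to 57 zones in each of 4 windows, and a second part with 28 to 33. A single window with 16 zones lay between the sixth and the seventh, and both of its borders were among the 3 largest steps of the chromosome, from 53 to 16 and from 16 to 47 zones.

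The last block, from 113000001 to 121000000, differed from the others in width more than in number. With 357 zones, or 44.6 per Mb, it was less dense than the sixth block at 46.6 per Mb. Its zones had a median width of 6000 bp, against 5000 bp in the sixth and 3200 to 4800 bp in the other 6. It held 107 zones of 10 kb or more, 29.97% of its own, and was covered to 39.2%. This block alone held 13.4% of the zones of the chromosome. Without it, the chromosome carried 20.8 zones per Mb at a covered share of 9.88% and a median width of 3000 bp, the last of these inside the range of the other autosomes with all their blocks kept (1800 to 3200 bp).

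Sparse blocks, runs of 3 or more sparse windows, numbered 3 on chromosome 11 (4.56 ± 2.64 on the others). They lay from 13000001 to 16000000, from 25000001 to 29000000 and from 37000001 to 40000000, and held 6, 12 and 6 zones. Their 24 zones had a median width of 1000 bp and none exceeded 3.80 kb. The blocks took up 8.42% of the span but held 0.90% of the zones, which covered 0.34% of the blocks' length. The middle one of the 3 contained the longest distance of the chromosome.

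The 5 windows with fewest zones were those starting at 10, 14, 27 and 39 Mb, with 1 zone each, and that starting at 9 Mb, with 2, taken by position from 4 windows with 2 zones (those starting at 9, 15, 38 and 41 Mb). At the other end, the 5 with most were from 102000001 to 103000000 with 57 zones, from 117000001 to 118000000 with 56, from 69000001 to 70000000 with 54, from 98000001 to 99000000 with 53, and from 115000001 to 116000000 with 50. The fullest of these was not the most covered: its zones had a median width of 4400 bp and took up 37.6%, while the window starting at 115 Mb, with 50 zones of a median 8800 bp, reached 50.5%. The most covered window was that starting at 117 Mb, at 51.6%, which ranked 6 among all autosomal windows. Chromosome 10 had the most covered one, at 77.1%.

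In windows of 5 Mb the same profile appeared with less detail. From 5 to 10 Mb the window held 84 zones and was covered to 9.28%. The windows from 10 to 15 Mb and from 25 to 30 Mb were the poorest, with 27 and 28 zones and covered shares of 1.136% and 1.076%. Only 15.3% and 15.8% of the 443 windows of the other autosomes held fewer zones. The window from 15 to 20 Mb held 46 zones of the narrowest median width on the chromosome at this scale, 1400 bp. Richer windows lay among these poor ones: that from 20 to 25 Mb held 87 zones and that from 30 to 35 Mb held 90.

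From 35 to 50 Mb the 5 Mb windows held 36, 53 and 72 zones in turn, with covered shares of 2.74%, 2.29% and 5.33%. At 50 to 55 Mb the number was 159 zones, more than in 94.8% of the other windows. The next 4 windows held 131, 108, 139 and 117 zones, with median widths of 3000 to 3800 bp and covered shares of 10.3% to 14.3%. That from 75 to 80 Mb held 167 zones at 18.4%. A poorer stretch followed, with 96, 106 and 84 zones in the windows from 80 to 95 Mb.

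The windows from 95 to 100 Mb and from 100 to 105 Mb held 203 and 222 zones and were covered to 26.5% and 25.5%. After 134 and 120 zones in the windows from 105 to 115 Mb, the window from 115 to 120 Mb held 234 zones. It was covered to 44.2%, above each of the 443 windows of the other autosomes, whose maximum was 37.1% on chromosome 17. Its zones had a median width of 6700 bp and a median distance of 5600 bp, and 80 of them were 10 kb or wider. Of the 466 autosomal windows of 5 Mb, 16 held 200 zones or more. These were 3 of the 23 windows of chromosome 11 and 13 of the 443 of the others. The 13 on other autosomes had median widths of 4000 to 6000 bp, so that the other 2 windows of chromosome 11, at 4600 and 4100 bp, lay inside their range and the window from 115 to 120 Mb above it.

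By 20 Mb sections the number of zones per Mb was 13.1 before 20 Mb and 12.1 from 20 to 40 Mb, both below the mean of the other autosomes. It was 20.8 from 40 to 60 Mb, 26.6 from 60 to 80 Mb, 24.5 from 80 to 100 Mb and 35.03 from 100 Mb to the end. Median width went from 2400 bp in the poorest section to 4600 bp in the last. The last section held 28.7% of the zones of the chromosome and 154 of its 349 zones of 10 kb or more.

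At the ends, the first 10 Mb of the span held 17.3 zones per Mb and the last 10 Mb held 38.7. The difference of 21.4 was larger than the mean of the other autosomes, 9.45 ± 10.8. It was smaller than those of chromosomes 4 (30.1), 5 (23.4) and 15 (22.4). With ends of 5 Mb it was 13, against 9.01 ± 15.3. Between the ends, chromosome 11 carried 21.3 zones per Mb, against 13.8 ± 2.49 and at most 18.1. Its high density was thus also present away from both ends.

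Wide zones lay where zones were many. Over the 117 windows Spearman's rho of median width with zone number was 0.83, against 0.77 ± 0.05 on the other autosomes. Windows are not independent, and both measures come from the same calls on the same pooled reads. When windows of like zone number were set side by side, the widths of chromosome 11 were equal or higher in each group. They differed less from the others than over all zones, though by another measure, given below. Windows with up to 10 zones had a median of 1450 bp on chromosome 11 and 1400 bp elsewhere. With 11 to 20 zones the medians were 2100 and 2000 bp, with 21 to 30 zones 3200 and 2750 bp, and with 31 to 40 zones 3600 bp in both. Above 40 zones they were 5300 bp over 16 windows and 4700 bp over 119. Among the other autosomes with at least 3 such windows, 1 of 18 reached the median of chromosome 11 in the group of fewest zones, 7 of 18, 2 of 18 and 11 of 17 in the next groups, and 2 of 11 in the fullest. The mean ratio over these 5 groups was 1.075, against 1.01 ± 0.07 for the same ratio among the other autosomes. It was 1.14 against 0.996 ± 0.093 with zones under 2 kb apart joined, and 1.06 against 1.00 ± 0.056 in 500 kb windows. Both were more than 1 SD above the mean of the others, while the ratio of 1.075 was less than 1 SD above. From the top, chromosome 11 ranked 4, 3 and 4 in turn, so other autosomes were higher each time. The ratio of median widths over all zones was 1.34, formed from the median of chromosome 11 and the mean of the medians of the others. Group ratios instead compare medians of window medians, with the windows of the others pooled. The drop from 1.34 is therefore not purely the effect of like zone number.

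**Figure D5:**
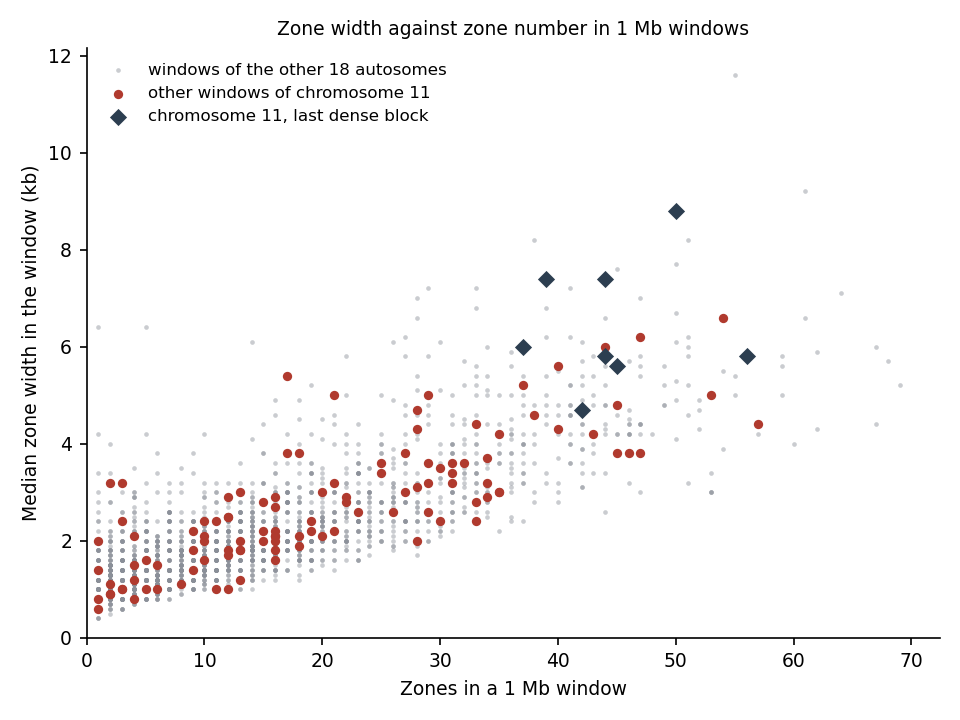
Median zone width (kb) against zone number in 1 Mb windows, for the other 18 autosomes (grey), chromosome 11 outside its last dense block (red circles) and the 8 windows of that block (dark diamonds). Most red points lie inside the grey cloud. The diamonds, with medians of 4.7 to 8.8 kb at 37 to 56 zones, lie mostly in its upper part, while grey points reach 11600 bp. The lowest diamond, at 4.7 kb, equals the median of windows with over 40 zones on the other autosomes.

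Most of the 10 widest zones gave the same picture. The widest, at 81.0 kb, ran from 118336001 to 118417000 in the last dense block and was the widest of the autosomes. Of the other 9, those from 120083401 to 120131200 (47.8 kb), from 120553001 to 120594200 (41.2 kb), from 115083201 to 115123600 (40.4 kb), from 117880001 to 117914200 (34.2 kb) and from 115646001 to 115679000 (33.0 kb) lay in that block too. Each of these 6 had 19 to 25 other zones with midpoints within 250 kb of its own.

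A further 3 of the widest zones lay in other dense windows. One of 40.6 kb ran from 96973601 to 97014200 in the sixth block, with 22 zones within 250 kb. Another of 36.6 kb ran from 77645401 to 77682000 in the fifth, with 25. That of 35.8 kb, from 32104201 to 32140000, lay in the proximal part, in a window of 35 zones between sparse blocks. It had only 8 zones within 250 kb.

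The second widest zone stood apart by its place. It ran for 76.8 kb from 3023401 to 3100200, was the first zone of the chromosome and had 7 other zones within 250 kb. As no zone lies before it, this count is from 1 side only, unlike those of the other 9. The incomplete window that holds it had 39 zones in 977 kb. The first zones of the other 18 autosomes were 0.60 to 10 kb wide. Whether repeated sequence at the start of the assembled chromosome bears on this zone was not tested. Leaving out the first zone of every autosome gave a covered share of 11.8% for chromosome 11 and the same median width. The last zone, from 121779401 to 121780000, was 600 bp wide.

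Chains were formed by linking zones no more than 10 kb apart. Of 2662 zones, 1085 were linked to none, and 582 stood in 291 pairs. Chains of 5 to 9 zones numbered 63 and chains of 10 or more numbered 6, and together these held 16.7% of the zones (10.02% ± 5.64 on the others, highest on chromosome 17 at 19.01%). This share was inside the range of the other autosomes. By number, chromosome 11 had the most chains of 5 or more, 69 against 66 on chromosome 4. It also had the most chains of 2 or more, 526 against 502 on chromosome 5. The longest chain by number had 16 zones from 98143801 to 98324000, in the sixth dense block, over 180 kb that were covered to 73.1%. The second had 13 zones from 115012201 to 115229000, and it included the 40.4 kb zone. It was covered to 84.1%, its zones having a median width of 14000 bp, and so it came close to a continuous zone of 217 kb. A further chain of 13 zones ran from 118939401 to 119094200 and was covered to 78.0%. The fourth, of 11 zones, ran from 68851601 to 68957800 in the fourth block, and the fifth, of 10, from 96860601 to 96942000 in the sixth. Another chain of 10 zones, from 119824601 to 119961600, tied with the fifth in number.

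Long stretches without a zone lay almost only in the proximal part. Of the 16 stretches over 500 kb, 15 began before 50 Mb. The exception, from 73480201 to 74129000 (649 kb), began before the fifth dense block and ended shortly inside it. The longest ran from 27254001 to 28482200 (1.23 Mb), and the fourth, from 26314601 to 27252000 (937 kb), lay directly before it, with a single zone of 2000 bp between them. In the same way the third, from 9038001 to 10123000 (1.09 Mb), and the sixth, from 10123601 to 11013400 (890 kb), were parted by a single zone of 600 bp. The second ran from 13761401 to 14949000 (1.19 Mb) and the fifth from 17854601 to 18773800 (919 kb). The seventh, the eighth and the ninth, of 722, 706 and 653 kb, began at 36568801, 41526401 and 24810601. Zones beside the 16 stretches had a median width of 1000 bp. Whether unmappable sequence lies in these stretches was not tested.

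Neighbouring windows resembled each other about as much as on other autosomes. The correlation of zone number between adjacent 1 Mb windows was 0.68 on chromosome 11 and 0.60 ± 0.11 on the others. At a distance of 5 Mb it was 0.21, against 0.17 ± 0.20, and at 10 Mb it was 0.17, against 0.06 ± 0.18. These values describe 117 windows that share 1 list. Steps of 20 zones or more between adjacent windows made up 12 of the 116 on chromosome 11 (10.3%), against 7.24% on the others. Steps were not scaled to the mean, which was higher on chromosome 11. The largest were those around the window from 99 to 100 Mb given above, together with the step from 13 to 44 zones at 113 Mb, where the last block begins, and that from 16 to 46 at 94 Mb, where the sixth begins.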

How the data were processed

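The values come from the zone list that the authors deposited, which gives positions in bp with no score, count or other unit. It merges 3 nascent strand replicates, per the design text of the series. CASAVA 1.8, SICER and build mm9 are named in the submitters' processing notes, and their settings and the use of the controls are not given in the sources used here. On chromosome 11, all 2662 zones start on a grid of 200 bp, with no distance under 800 bp. The caller's threshold, grid and joining distance set how many zones a region shows and where a zone is split. Depth is unknown.

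Zones were assigned by midpoint to windows of 1 and 5 Mb starting on whole multiples and wholly inside the span. Chromosomes X and Y were left out of comparisons. The chromosome, measures and lists were chosen with earlier results of these data known, so no test was made. Regions named were the 10 widest zones, the 10 longest distances, the 5 fullest and 5 emptiest 1 Mb windows, every block and 5 Mb window, the 5 largest chains, and the first and last zone. Alternatives covered narrow zones, joining under 2 kb, window placement, call limits and the chromosome ends. The window, block and chain functions were tested on simulated data. Python 3.11.15 was used with numpy 2.4.6, scipy 1.17.1, pandas 2.3.3 and matplotlib 3.10.9.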

Additional observations from a re-analysis of the deposited data

How the results depend on the processing

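Of the 57 alternatives, 49 moved a value by less than 1 SD over the other autosomes. For counts of windows and blocks, the limit was instead a change of no more than 1.5 times. No ratio crossed 1, and no difference or correlation changed sign. Counts of windows and blocks had no such outcome. Leaving out 1 other autosome could not give it either, since chromosome 11 was denser than each of them. With stretches over 500 kb left out of the span, the ratio of zone density on chromosome 11 to the mean of the others was 1.38 in place of 1.57. With the 90th and 10th percentile as limits, dense windows numbered 32 (27.4%, against 10.6% of the windows of the others). Sparse windows numbered 8 (6.84%, against 14.4%). Stricter limits must call fewer windows. Blocks under these limits were 4 dense and 0 sparse ones. Runs of 2 or more windows gave 5 sparse blocks in place of 3. Spearman's rho of width with zone number was 0.75 in 500 kb windows, where the other autosomes also had a lower value (0.70 ± 0.07). Leaving the block from 113 to 121 Mb out, an alternative chosen after seeing the data, brought the ratio for covered share from 2.15 to 1.79; it could only lower the ratio, since the other autosomes kept their most covered blocks. With ends of 5 Mb in place of 10 Mb, the last end of chromosome 11 exceeded the first by 13 zones per Mb in place of 21.4. Leaving out each of the other autosomes in turn gave a density ratio of 1.55 to 1.60. No paired analysis was possible because 1 merged list stands for the 3 cultures, so no replicate could be left out either. Without read depth, the number of weak zones below the caller's threshold cannot be bounded.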
